A study of Mus musculus with 6 samples.

Results

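The genes described are the conjugating enzymes of mouse liver, namely the UDP-glucuronosyltransferases (UGT), the sulfotransferases (SULT) and the glutathione S-transferases (GST). They were taken by gene symbol. Of the 18193 genes with a probe set that names a single gene, 43 belonged to them, 10 UGT, 13 SULT and 20 GST genes. Glutathione transferases with other symbols, such as Mgst1, are outside this count and stand in a list read further below. A further 5 probe sets of these families name several genes at once, so they stayed outside the count and are given beside their relatives. Livers of Mir137-/- mice (3 arrays) and Mir137+/+ mice (3 arrays), all killed untreated on postnatal day 14, were profiled on Affymetrix mouse whole-genome arrays. The Mir137-/- mice lacked miR-137 in the whole body, since Cre had removed the miR-137 exons in E14 embryonic stem cells. According to the methods these cells were of a strain other than C57BL/6. The chimeras were bred to C57BL/6 mice, and both genotypes came from crosses of heterozygotes. The labels call the arrays of a genotype biological replicates, and each array held the RNA of 1 liver according to the methods. The microRNA that the mutant lacks is brain-enriched, and its mature sequence is shown because it defines the genotype, with the seed, bases 2 to 8, in capitals (RefSeq, GRCm38.p6, chr3:118433901-118433923, plus strand).
mmu-miR-137-3p: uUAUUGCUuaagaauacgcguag

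Conjugating enzymes make hormones, bile pigments, drugs and toxins more soluble so that they can leave the body in bile or urine. UGT enzymes transfer a sugar from a UDP-sugar, SULT enzymes transfer sulfate from the donor PAPS, and GST enzymes join electrophiles to glutathione, which the cell then trims into a mercapturate. In mouse liver these genes mature around birth and weaning, several differ between adult males and females, and many are known targets of NRF2, of the aryl hydrocarbon receptor and of nuclear receptors such as CAR, PXR and FXR.

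Array medians lay between 4.88 and 4.91 on the log2 scale, and the hepatocyte transcript Alb read 13.71 to 13.74 on Mir137-/- arrays and 13.73 to 13.79 on Mir137+/+ arrays. The methods name male mice, yet Xist, which female cells express, read 3.66 to 4.24 on the Mir137-/- arrays, against 3.94 on replicate 1 and 10.91 and 10.81 on replicates 2 and 3 of Mir137+/+, so sex and genotype partly coincide here. Mir137-/- replicate 1 held muscle transcripts, with Acta1 at 11.38, and replicate 2 of each genotype held exocrine pancreas transcripts, with Cpa1 at 7.70 in Mir137-/- and 6.28 in Mir137+/+. Markers of neutrophils were lower in Mir137-/- (6 of 7 called, beside 5.67% of all genes). Their mean log2 level was 6.27 to 6.80 in Mir137-/- and 7.65 to 8.15 in Mir137+/+. Markers of B cell precursors were lower too (5 of 6 called), at 4.46 to 4.79 in Mir137-/- and 5.69 to 5.97 in Mir137+/+. No hepatocyte marker of the 8 measured was called. The part of sex and of these other cells in the results below was not tested except where a value without the arrays concerned is given, and fewer cells of a type cannot be told apart from less RNA per cell.

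A gene was called when the limma test gave an adjusted p below 0.05 over all genes and the difference exceeded 1.5-fold. Conjugating enzymes changed in both directions: 5 of the 43 were higher in Mir137-/- livers, namely Gstt2, Ugt3a1, Gsta2, Gstp1 and Gstm1, and 6 were lower, namely Gstt3, Gstm2, Gstk1, Sult1b1, Ugt2a3 and Ugt2b36. That is 25.6% of the members called, beside 5.67% of all genes, or 2.34% of all genes higher and 3.34% lower. At an adjusted p below 0.05 of any fold there were 16 members, 6 higher and 10 lower, beside 12.0% of all genes, or 5.07% higher and 6.90% lower. On 8 members every Mir137-/- array read above every Mir137+/+ array and on 17 every one read below, beside 14.9% and 17.4% of all genes, together 32.3%. The median difference (Mir137-/- minus Mir137+/+, log2) over the 43 genes was -0.06, against 0.00 over all genes, and the families parted: it was -0.05 for the UGT genes, -0.36 for the SULT genes and 0.01 for the GST genes. All 11 called genes were among the 33 members that were not below the array median on every array.

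**Figure D1:**
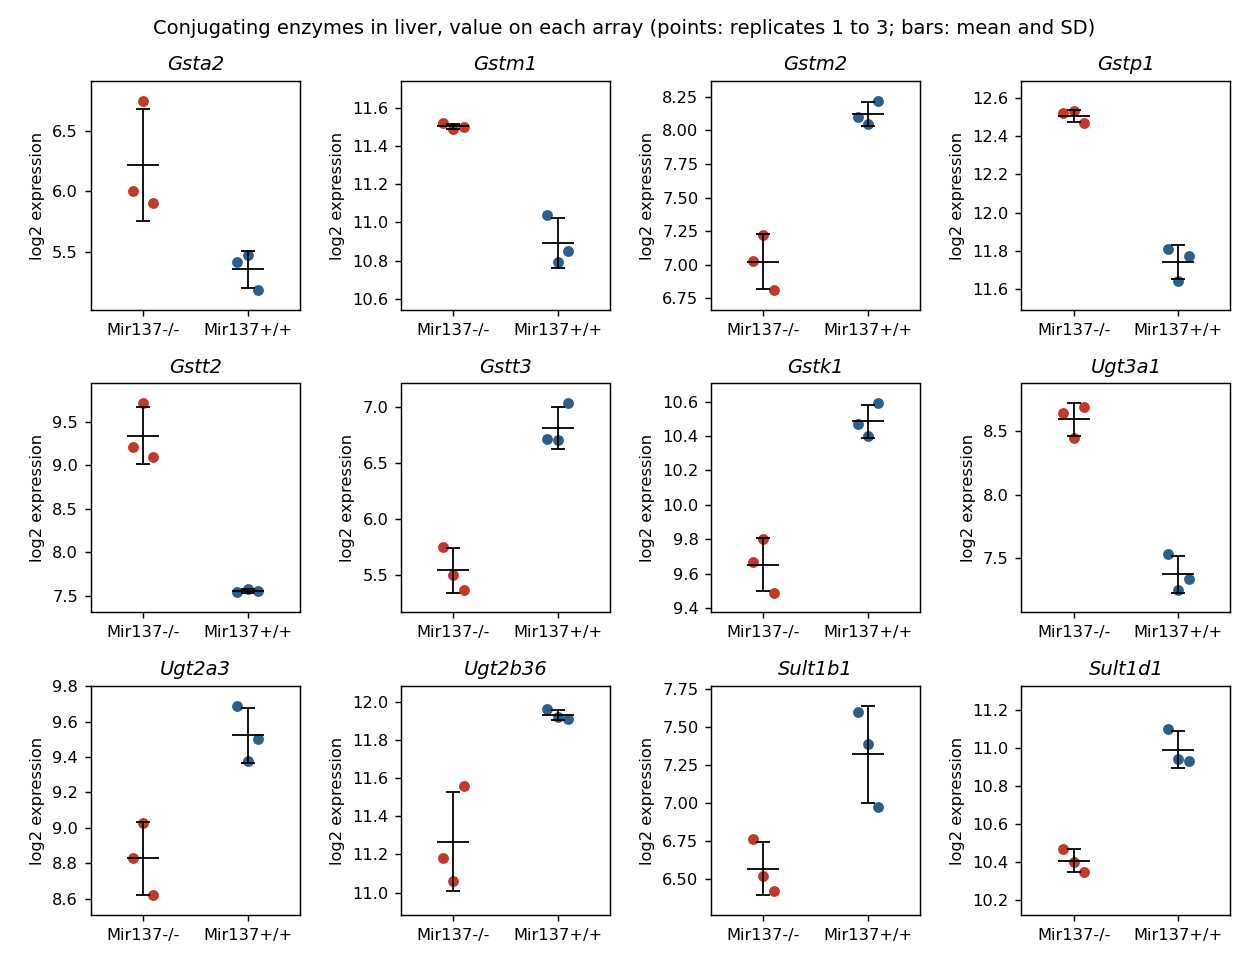
Log2 level of the 11 called conjugating enzymes, and of Sult1d1, which was not called, on each array. Mir137-/- (3 arrays) stands left of Mir137+/+ (3 arrays), with the mean and SD as bars. The genotypes do not overlap in any panel, and Gstt2 shows the widest gap, 9.09 to 9.71 in Mir137-/- against 7.54 to 7.58 in Mir137+/+.

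Among the 10 UGT genes, Ugt3a1 stood higher in Mir137-/- livers and 2 genes of the Ugt2 cluster stood lower (30.0% called, beside 5.67% of all genes). Ugt3a1, whose human counterpart uses UDP-N-acetylglucosamine as its sugar donor, read 8.64, 8.45 and 8.69 in Mir137-/- and 7.53, 7.25 and 7.33 in Mir137+/+. All Mir137-/- arrays lay above all Mir137+/+ arrays, a difference of 1.22 ± 0.11 (SE, n = 3 each; 2.33-fold; limma adjusted p = 0.000892). Its other probe set, which is not marked as shared between transcripts, gave 0.78 (adjusted p = 0.0151 over all probe sets, of which 4.52% were called). The neighbouring Ugt3a2 read 11.17, 10.94 and 11.28 in Mir137-/- and 11.23, 10.97 and 10.92 in Mir137+/+, with the arrays mixed (0.09, adjusted p = 0.705).

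Ugt2a3, a glucuronosyltransferase that in humans conjugates bile acids, read 8.83, 9.03 and 8.62 in Mir137-/- and 9.69, 9.38 and 9.50 in Mir137+/+. It fell by 0.70 on the log2 scale (SE 0.13; 1.62-fold; limma adjusted p = 0.0142), and by 0.61 without Mir137+/+ replicate 1 and 0.71 without Mir137+/+ replicate 3, where it lost its call (adjusted p = 0.052 and 0.0508). Ugt2b36, one of the UGT2B enzymes, a subfamily that conjugates steroids and drugs, read 11.18, 11.06 and 11.56 in Mir137-/- and 11.96, 11.92 and 11.91 in Mir137+/+. The Mir137+/+ arrays lay close together and all above the Mir137-/- arrays, with a difference of -0.66 ± 0.13 (adjusted p = 0.0182). It lost the call without any one of the arrays other than Mir137-/- replicate 3, where its differences were -0.67 to -0.56 and its limma adjusted p 0.0459 to 0.0626.

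The remaining UGT2B genes gave no call with all 6 arrays. Ugt2b35 read 10.40, 9.85 and 10.55 in Mir137-/- and 9.83, 9.82 and 9.71 in Mir137+/+, so that its Mir137-/- replicate 2, an array with pancreas transcripts, lay beside the Mir137+/+ arrays (0.48, limma adjusted p = 0.118). Without replicate 2 of both genotypes it was called higher (0.70, adjusted p = 0.0443). Ugt2b5, which lies next to Ugt2b36, read 11.04, 10.98 and 11.23 in Mir137-/- and 11.39, 11.41 and 11.42 in Mir137+/+, without overlap but short of the test (-0.32, adjusted p = 0.0625). Ugt2b1 and Ugt2b34 differed by -0.11 and -0.14, and Ugt2b37 and Ugt2b38, both below the array median throughout, by 0.02 and 0.07. A probe set that names Ugt2a1 and Ugt2a2 together read 2.63 to 3.35 in Mir137-/- and 2.87 to 3.10 in Mir137+/+ (-0.06, adjusted p = 0.878 over probe sets). The Ugt1a genes, which include the bilirubin-conjugating Ugt1a1, share their last exons, and 3 probe sets that name them together read 11.90 to 12.58 over both genotypes. Their differences were -0.05, 0.13 and -0.05, none of which passed the test (adjusted p = 0.813, 0.495 and 0.801 over probe sets).

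The sulfotransferases lay mostly below the Mir137+/+ level, with 11 of 13 differences negative, beside 8960 of all 18193 genes. The 11 include Sult1c1, Sult1e1, Sult2b1, Sult3a1 and Sult4a1, which lay below the array median on every array, as did Sult6b1 with a positive difference. The sign of such low readings says little. On 7 of the 13 every Mir137-/- array read below every Mir137+/+ array, beside 17.4% of all genes. Sult1b1 was the only one called, 7.69% of the family beside 5.67% of all genes. Sult1b1, which sulfates thyroid hormones and phenols, read 6.76, 6.52 and 6.42 in Mir137-/- and 7.60, 7.39 and 6.97 in Mir137+/+. The gap between the closest arrays was narrow and the difference was -0.75 ± 0.17 (1.69-fold; limma adjusted p = 0.0272). The call was lost without Mir137-/- replicate 2 or 3 and without Mir137+/+ replicate 1 or 2, with differences of -0.73 to -0.61 and limma adjusted p values of 0.0719 to 0.0945.

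Sult1a1, the main phenol sulfotransferase, read 11.45, 11.34 and 11.37 in Mir137-/- and 11.95, 11.82 and 11.87 in Mir137+/+. It passed the test at less than 1.5-fold (-0.49, adjusted p = 0.00958). Sult1d1, a mouse enzyme for catecholamines, read 10.47, 10.40 and 10.35 in Mir137-/- and 11.10, 10.94 and 10.93 in Mir137+/+, just short of the fold (-0.58 ± 0.09, adjusted p = 0.00614), and its other probe set fell by 0.71 and was called among probe sets. It was past the fold without Mir137-/- replicate 1 and without Mir137+/+ replicate 2 or 3 (-0.61 to -0.62). Sult2a2, a hydroxysteroid and bile acid sulfotransferase, read 12.08, 11.88 and 12.11 in Mir137-/- and 12.39, 12.34 and 12.46 in Mir137+/+ (-0.37, adjusted p = 0.0416); other Sult2a copies are close in sequence and could share its probes. With any 1 array left out Sult2a2 no longer passed (-0.42 to -0.30, limma adjusted p = 0.051 to 0.14). Sult1e1, the estrogen sulfotransferase, also passed the test (-0.42, adjusted p = 0.0393), but at 2.40 to 2.55 in Mir137-/- and 2.72 to 3.04 in Mir137+/+ it lay below the array median on every array, and with 1 array left out it passed only without Mir137+/+ replicate 2 (adjusted p = 0.044; 0.0629 to 0.119 without each of the others).

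Sult2a8, a hepatic relative of the bile acid sulfotransferases, read 10.66, 10.72 and 10.66 in Mir137-/- and 11.64, 10.98 and 10.95 in Mir137+/+. Mir137+/+ replicate 1, the Mir137+/+ array without Xist, stood above the other 2, and the difference of -0.51 was not called (adjusted p = 0.110). With a term for sex it was -0.96 and called (limma adjusted p = 0.0172), and without the arrays with Xist it was also -0.96. Both settings take the difference against Mir137+/+ replicate 1 alone, so they are not separate checks. Sult5a1 differed by -0.36 without overlap (adjusted p = 0.0945), and Sult1c2 by 0.33 (adjusted p = 0.222). The other 5 sulfotransferases (Sult1c1, Sult2b1, Sult3a1, Sult4a1 and Sult6b1) lay below the array median on every array, with differences of -0.24 to 0.08.

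**Figure D2:**
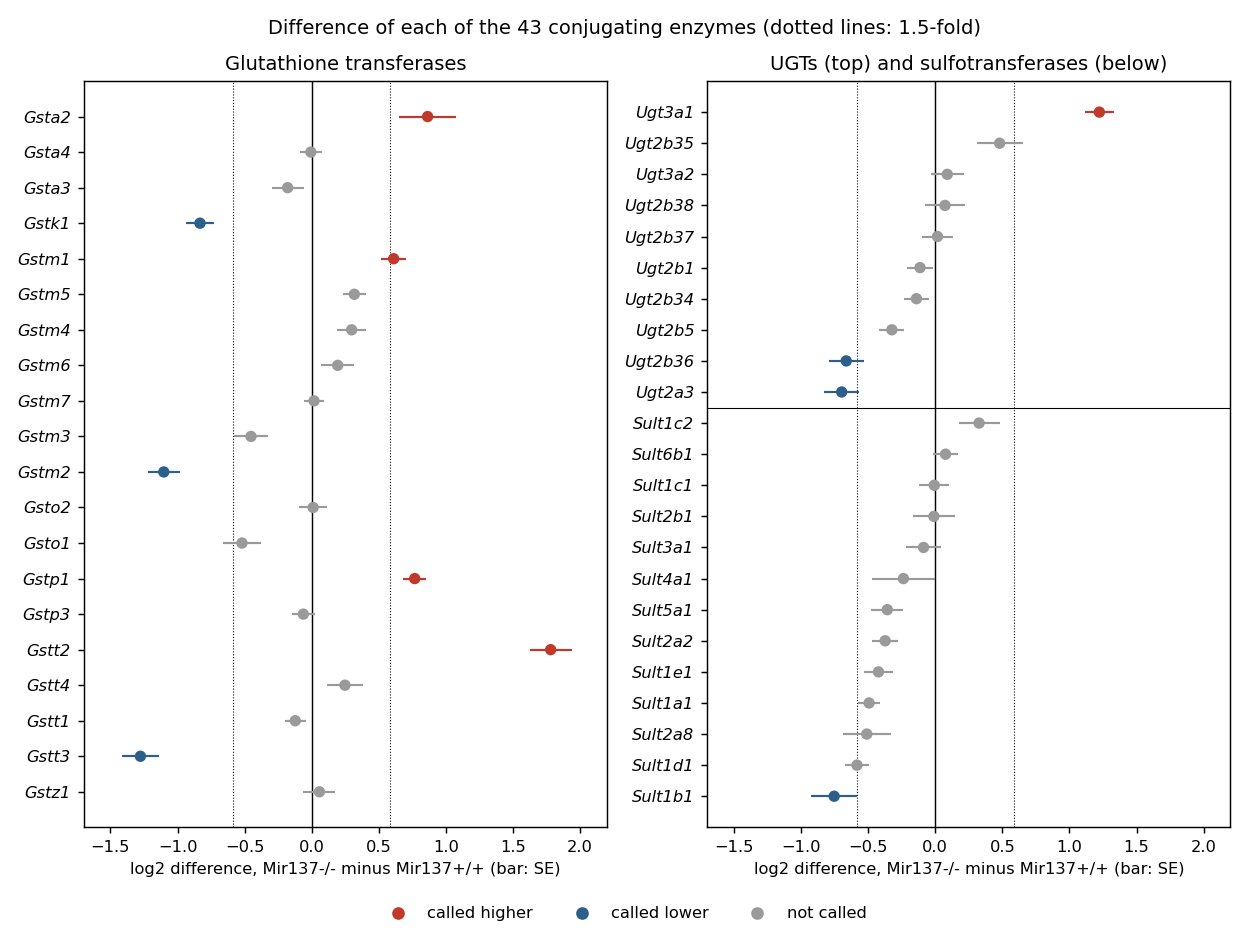
Log2 difference, Mir137-/- minus Mir137+/+, for all 43 conjugating enzymes by family, with the SE as bars (n = 3 arrays each) and called genes in colour. The SULT genes lie mostly left of 0, while the GST genes reach both ends, Gstt3 at -1.28 and Gstt2 at 1.78.

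Of the 20 glutathione transferases 7 were called (35.0%, beside 5.67% of all genes), 4 higher and 3 lower in Mir137-/- livers. The share was 30.0% in the UGT genes. Opposite directions occurred within single GST subfamilies. Gstt2, a theta-class enzyme active on small organic electrophiles, read 9.21, 9.71 and 9.09 in Mir137-/- and 7.54, 7.58 and 7.55 in Mir137+/+. The Mir137+/+ arrays lay close together, and the difference was 1.78 ± 0.16 (3.43-fold; limma adjusted p = 0.000819). Gstt3, of the same class, read 5.75, 5.50 and 5.36 in Mir137-/- and 6.71, 6.70 and 7.03 in Mir137+/+, a difference of -1.28 ± 0.14 (2.42-fold lower; adjusted p = 0.00155). Gstt1, which acts on halogenated methanes, lies between them on chromosome 10 and differed by -0.12 (adjusted p = 0.377), and Gstt4, below the array median throughout, by 0.25.

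The mu class on chromosome 3 also held calls in both directions, here in adjacent genes, with Gstm2 lower beside Gstm1 higher. Gstm1, a major liver GST that binds aromatic epoxides, read 11.52, 11.49 and 11.50 in Mir137-/- and 11.04, 10.79 and 10.85 in Mir137+/+. The difference was 0.61 ± 0.09 (1.53-fold; limma adjusted p = 0.00616), near the fold threshold, and its 4 probe sets gave 0.56 to 0.65, of which 3 were called. Without Mir137+/+ replicate 2 the difference was 0.56, short of 1.5-fold. Gstm2 read 7.03, 7.22 and 6.81 in Mir137-/- and 8.10, 8.05 and 8.22 in Mir137+/+, with no overlap and a difference of -1.10 ± 0.12 (2.15-fold lower; adjusted p = 0.00162). Gstm5 passed the test at a small fold (8.60, 8.72 and 8.58 in Mir137-/- and 8.36, 8.27 and 8.32 in Mir137+/+; 0.32, adjusted p = 0.0482), but not with any 1 array left out (adjusted p = 0.0655 to 0.149). Gstm3, Gstm4, Gstm6 and Gstm7 gave -0.45, 0.30, 0.19 and 0.02 with adjusted p values of 0.0602 or more, and the other probe set of Gstm3 gave 0.02. Mu-class genes are close copies of each other, so cross-reading between their probe sets is possible. The Mir137 locus lies on the same chromosome, with miR-137-3p at base 118433901. The upstream windows of Gstm1 and Gstm2 start at bases 108017974 and 107986421. The targeted stem cells were of another strain than the mice the chimeras were bred to. Whether Mir137-/- livers carried alleles of the stem cell strain at the Gstm genes was not tested.

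The upstream windows of Gstm1, Gstm2, Gstt3, Gstp1 and Gsta2 are printed, and of these only Gstm1 and Gstm2 are neighbours that moved apart. The windows of the called genes Gstk1, Sult1b1, Ugt2a3, Ugt2b36 and Ugt3a1 held no match to the motifs searched and are not printed. Each window is the 250 bases before the RefSeq start (GRCm38.p6, the first listed start where a gene has several), written 5′ to 3′ on the gene's strand. Capitals mark the antioxidant response element core TGANNNNGC, read by NRF2 with small MAF proteins, and the xenobiotic response element core GCGTG, read by the aryl hydrocarbon receptor, searched on both strands. In the Gstp1 window they are a TGANNNNGC match and, at the end, a GCGTG match that overlaps TGANNNNGC on the other strand. Gstt2 had no window in the table used.
Gstm1, chr3:108017974-108018223, minus strand: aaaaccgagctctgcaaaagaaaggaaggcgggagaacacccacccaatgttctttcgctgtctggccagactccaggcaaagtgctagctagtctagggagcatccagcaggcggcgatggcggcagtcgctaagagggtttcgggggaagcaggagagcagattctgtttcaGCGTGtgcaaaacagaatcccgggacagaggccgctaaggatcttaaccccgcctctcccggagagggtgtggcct
Gstm2, chr3:107986421-107986670, minus strand: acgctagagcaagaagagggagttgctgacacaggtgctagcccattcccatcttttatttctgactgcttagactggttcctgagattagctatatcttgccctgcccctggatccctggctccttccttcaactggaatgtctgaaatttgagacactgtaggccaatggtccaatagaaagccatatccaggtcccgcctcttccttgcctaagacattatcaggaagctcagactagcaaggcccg
Gstt3, chr10:75781423-75781672, minus strand: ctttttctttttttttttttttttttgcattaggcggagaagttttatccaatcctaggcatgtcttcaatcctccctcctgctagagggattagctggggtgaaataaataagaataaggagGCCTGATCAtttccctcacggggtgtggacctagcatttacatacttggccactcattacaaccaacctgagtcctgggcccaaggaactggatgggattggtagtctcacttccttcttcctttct
Gstp1, chr19:4037913-4038162, minus strand: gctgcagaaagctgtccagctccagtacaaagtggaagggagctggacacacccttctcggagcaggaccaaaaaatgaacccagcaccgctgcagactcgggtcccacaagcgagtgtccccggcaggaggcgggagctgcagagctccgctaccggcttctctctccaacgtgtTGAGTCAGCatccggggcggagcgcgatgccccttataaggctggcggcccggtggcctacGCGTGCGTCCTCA
Gsta2, chr9:78347146-78347395, minus strand: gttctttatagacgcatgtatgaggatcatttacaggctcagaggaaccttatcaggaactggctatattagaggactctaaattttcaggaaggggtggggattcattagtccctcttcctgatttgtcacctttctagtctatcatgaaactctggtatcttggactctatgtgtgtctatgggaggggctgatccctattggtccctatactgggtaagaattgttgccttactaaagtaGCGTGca

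A GCGTG match stood in the windows of Gstm1, Gstp1 and Gsta2, 3 of the 4 called-higher genes that have a window, and in 0 of 6 called-lower genes. Over all 38 members with a window it stood in 6 (15.8%), against 28.2% of the 27025 mouse genes with a window. TGANNNNGC stood in Gstp1 alone of the 4 and in Gstt3 alone of the 6, in 14 of 38 members (36.8%) and in 35.1% of all genes with a window. Matches to TTCNNNGAA, the STAT5 core, stood in 1 of 38 members, which was not called, and in 7.18% of all genes with a window. A match describes letters in the window and is not a binding site.

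Gstp1, the pi-class enzyme, read 12.52, 12.53 and 12.47 in Mir137-/- and 11.81, 11.64 and 11.77 in Mir137+/+. The arrays of each genotype lay close together and the genotypes did not overlap, and the difference was 0.77 ± 0.09 (1.70-fold; limma adjusted p = 0.00173). Its near-identical neighbour Gstp2 has no probe set of its own here, so the value may hold both, whereas Gstp3 differed by -0.06. Gsta2, an alpha-class enzyme that reduces lipid hydroperoxides, read 6.0, 6.75 and 5.90 in Mir137-/- and 5.41, 5.47 and 5.18 in Mir137+/+, with Mir137-/- replicate 2, one of the arrays with pancreas transcripts, the highest. Its difference of 0.86 ± 0.22 (1.82-fold; adjusted p = 0.0393) was 0.66 without the arrays that held pancreas transcripts (adjusted p = 0.0613). It lost its call without Mir137-/- replicate 1 (0.97, adjusted p = 0.055) and without any 1 of the Mir137+/+ arrays (0.78 to 0.92, adjusted p = 0.0916 to 0.128). A probe set that Gsta2 shares with Gsta1 and Gm3776 gave 1.0 (adjusted p = 0.0156 over probe sets). Gsta3, which in mice protects against aflatoxin, and Gsta4, which conjugates the lipid peroxidation product 4-hydroxynonenal, differed by -0.18 (adjusted p = 0.391) and -0.01.

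Gstk1, a GST of mitochondria and peroxisomes, read 9.67, 9.80 and 9.49 in Mir137-/- and 10.47, 10.40 and 10.59 in Mir137+/+. Every Mir137-/- array lay below the Mir137+/+ arrays, with a difference of -0.83 ± 0.11 (1.78-fold lower; limma adjusted p = 0.00299). Gsto1, an omega-class enzyme that reduces dehydroascorbate, read 9.46, 9.82 and 10.05 in Mir137-/- and 10.31, 10.29 and 10.29 in Mir137+/+ (-0.52, adjusted p = 0.0556). The 3 Mir137-/- arrays of Gsto1 spread widely, and without Mir137-/- replicate 3 it was called (-0.66, adjusted p = 0.0232). Its other probe set gave -0.33 and was not called (limma adjusted p = 0.127 over probe sets). Gstz1, the maleylacetoacetate isomerase of tyrosine breakdown, differed by 0.06 (adjusted p = 0.812) and Gsto2, below the array median throughout, by 0.01.

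**Figure D3:**
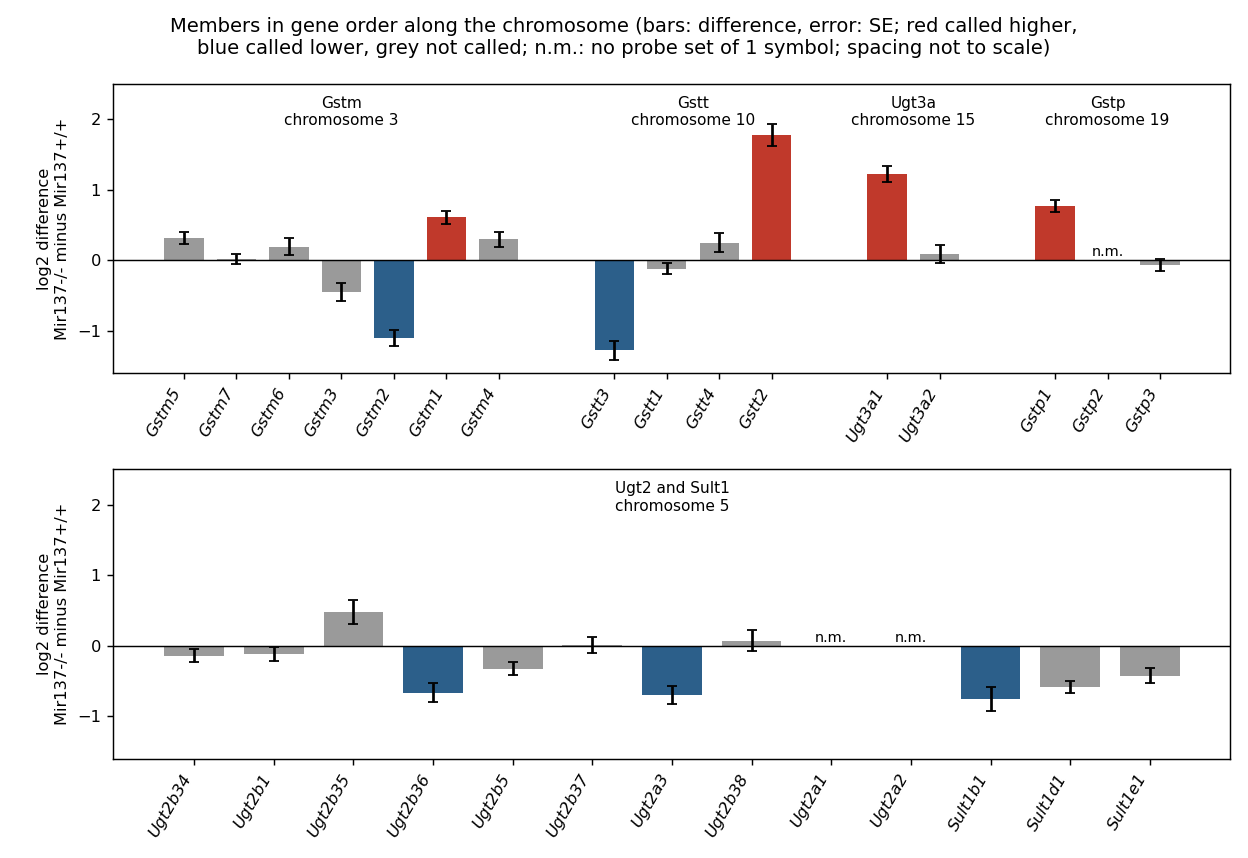
Log2 difference, Mir137-/- minus Mir137+/+, of members in their order along 5 chromosomes, with SE bars (n = 3 arrays each); spacing is not to scale and n.m. means no probe set that names the gene alone. Gstm2 (-1.10) and Gstm1 (0.61) are neighbours, and the Gstt group begins with Gstt3 (-1.28) and ends with Gstt2 (1.78).

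The calls differed in how they stood under other settings, which changed the arrays used, the scaling, the filter, the probe sets or the model. Gstt2, Gstt3, Gstm2 and Gstp1 have 1 probe set each, so the choice of probe sets could not move their differences. Gstt2, Gstt3, Gstm2, Gstp1 and Ugt3a1 kept their call in 16 of 17 settings of the limma fit and lost it only without the 2 Mir137+/+ arrays with Xist, where a single Mir137+/+ array remains. There the differences were 1.80 for Gstt2, 1.06 for Ugt3a1, 0.70 for Gstp1, -1.17 for Gstt3 and -1.08 for Gstm2, with limma adjusted p values of 0.0602 to 0.109. In that setting 0 members were called, 3 higher and 8 lower at an unadjusted p below 0.05 and more than 1.5-fold, and all 11 genes kept their sign. With a term for sex, taken from Xist, 3 members were called higher and 4 lower, among them those 5 genes, joined by Sult1d1 and Sult2a8. Both arrays with Xist are Mir137+/+, so with that term each difference was also taken against Mir137+/+ replicate 1 alone. The differences equalled those without the arrays with Xist. Gstm1 fell short with the sex term (0.46) and without the pancreas arrays (0.57, limma adjusted p = 0.0704). Gstk1 kept its call in 15 settings, Gstm1 and Ugt2a3 in 13, Gsta2 and Sult1b1 in 10 and Ugt2b36 in 9. Leaving out the array that held muscle transcripts (Mir137-/- replicate 1) gave 4 members higher and 6 lower.

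**Figure D4:**
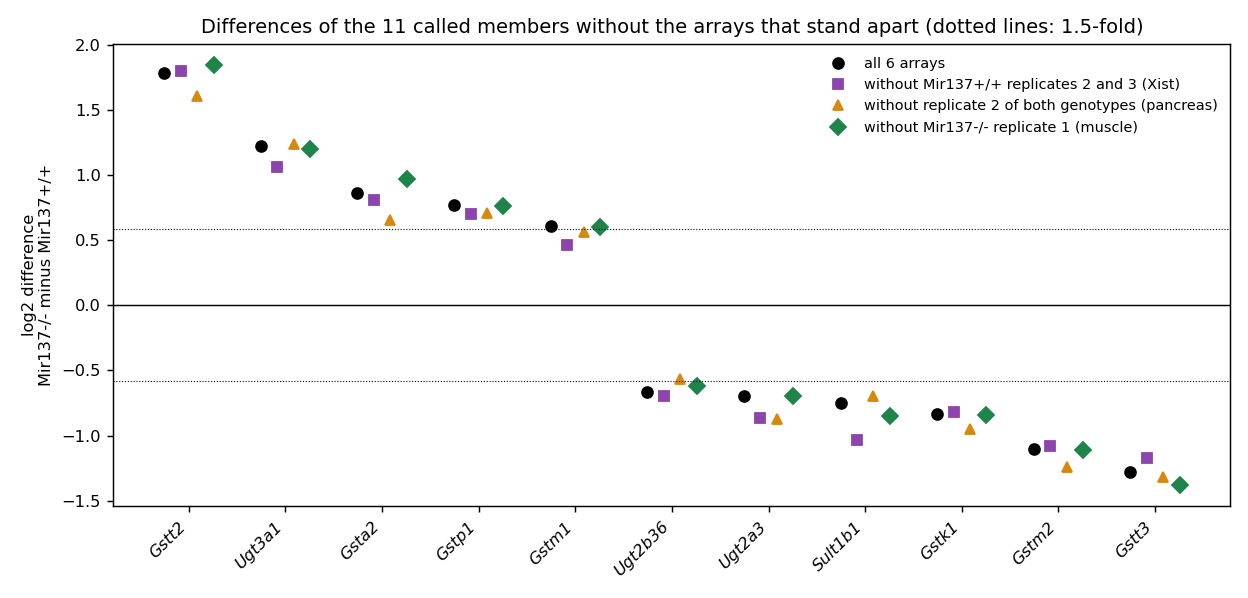
Log2 difference, Mir137-/- minus Mir137+/+, of the 11 called members (n = 3 arrays each, as black circles), and again without the arrays that carry Xist, pancreas or muscle transcripts. Each gene keeps its side of 0 under the 4 choices plotted, and Gstm1 lies nearest to 0 at 0.46 without the arrays with Xist.

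The genes that supply, trim, export and control conjugation were read from 9 lists, in which 99 of 107 genes had a value and 7 were called higher and 11 lower in Mir137-/- livers, 18.2% beside the 5.67% of all genes. Sugar and sulfate supply did not pass the threshold: 0 of 6 genes of UDP-glucuronic acid supply were called (median 0.19). Nor were any of 8 in the list of PAPS supply (median -0.15), where 1 gene passed at an adjusted p below 0.05. That list also held Tpst1 and Tpst2, which use PAPS (0.36 and -0.23), and Bpnt1, which breaks down its product (-0.37). Of 13 genes of glutathione synthesis and reduction, 1 was called higher and 1 lower (15.4%). Gclc, the catalytic subunit of the rate-limiting ligase, read 11.02, 10.96 and 11.09 in Mir137-/- and 10.49, 10.35 and 10.39 in Mir137+/+. The difference was 0.61 (limma adjusted p = 0.0042), and it fell under 1.5-fold without Mir137-/- replicate 3 or Mir137+/+ replicate 2 (both 0.58). Its other probe set gave 0.54, and the mean of its probe sets 0.577, both under 1.5-fold. Gpx1, which spends glutathione on peroxides, read 12.07, 12.22 and 12.24 in Mir137-/- and 12.90, 12.99 and 12.94 in Mir137+/+ (-0.77, adjusted p = 0.00184).

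Genes of the mercapturate pathway and of glutathione breakdown were lower where they were called, 4 of 12 (33.3%, beside 5.67% of all genes). The list had 0 called higher and a median of -0.31. Ggct, the gamma-glutamylcyclotransferase, read 7.82, 7.66 and 7.95 in Mir137-/- and 9.04, 9.07 and 9.21 in Mir137+/+ (-1.30, limma adjusted p = 0.000547; -0.69 as the mean of its probe sets). The other 3 were Dpep1, a dipeptidase that trims the conjugates (-0.76), Chac2, which cleaves glutathione (-0.66), and Acy3, which deacetylates mercapturates (-0.65). Dpep1 read 3.75 to 4.29 in Mir137-/- and 4.61 to 5.18 in Mir137+/+. It kept its call in 5 of 16 settings, none of them with an array left out, and its other probe set gave -0.23 and was not called. Chac2 lost its call without Mir137-/- replicate 1 or 2 and without Mir137+/+ replicate 1 or 3 (-0.63 to -0.56).

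Of the exporters, Abcc3, which moves glucuronides into blood, was the only one of 9 called (8.90, 9.38 and 8.84 in Mir137-/- and 8.54, 8.32 and 8.19 in Mir137+/+; 0.69, limma adjusted p = 0.0315). Abcg2, an efflux pump of the bile canaliculus that carries sulfates, passed the test below the fold (0.57, adjusted p = 0.00508). Abcc3 lost its call without Mir137-/- replicate 1 or 2 and without Mir137+/+ replicate 2 or 3 (0.52 to 0.76). The exporters had 11.1% called, beside 5.67% of all genes, and a median of 0.27. Of 8 deconjugating enzymes 1 was called (12.5%), the lysosomal sulfatase Arsg (0.80, limma adjusted p = 0.0171), with a list median of 0.05. Arsg lost its call without Mir137+/+ replicate 1 (0.71) or 2 (0.82).

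Of 16 regulators 0 were called higher and 2 lower (12.5%, beside 5.67% of all genes), with a median of -0.21. Nr1h4, the bile acid receptor FXR, read 8.40, 8.58 and 8.71 in Mir137-/- and 9.41, 9.32 and 9.31 in Mir137+/+ (-0.78, limma adjusted p = 0.0031). Nfe2l2, which encodes NRF2, was called lower by the probe set used here, at 7.88, 7.97 and 8.38 in Mir137-/- and 8.94, 8.91 and 9.01 in Mir137+/+ (-0.88, adjusted p = 0.00642). Its other probe set went the opposite way, at 7.07, 7.14 and 7.64 in Mir137-/- and 5.71, 5.72 and 5.66 in Mir137+/+ (1.59, adjusted p = 0.000818 over probe sets), so these arrays give no single direction for it. Of 14 measured genes commonly read as NRF2 reporters, 5 also stand in the other lists. Among the 14, 5 were called higher and 1 lower (42.9%), with a median of 0.44. Those called higher were the aldehyde oxidase Aox1 (0.98), the sulfiredoxin Srxn1 (0.97), the epoxide hydrolase Ephx1 (0.93), the quinone reductase Nqo1 (0.70) and Gclc. Nqo1 gave 0.58, under 1.5-fold, without Mir137-/- replicate 1. Gclc and Ephx1 are counted in another list as well, and the lower one was the carboxylesterase Ces1g (-1.97).

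A list of 18 measured enzymes outside the 3 families gave 3 calls lower, all conjugating enzymes, and 1 higher, Ephx1 as above. That is 22.2% of the list, beside 5.67% of all genes. Beside conjugating enzymes it held the epoxide hydrolases Ephx1 and Ephx2, which add water. Hnmt, which methylates histamine, read 4.96, 5.44 and 4.92 in Mir137-/- and 6.82, 6.49 and 6.44 in Mir137+/+ (-1.48, limma adjusted p = 0.00178). Inmt, a methyltransferase of indoleamines, and Baat, which joins bile acids to taurine or glycine, differed by -0.75 (adjusted p = 0.0398) and -0.66 (adjusted p = 0.0133), and Baat by -0.20 without the probe sets marked as shared between transcripts. Baat lost its call without Mir137+/+ replicate 1 or 3 (-0.65 and -0.64), and Inmt without any 1 array other than Mir137-/- replicate 2 (-0.84 to -0.60).

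**Figure D5:**
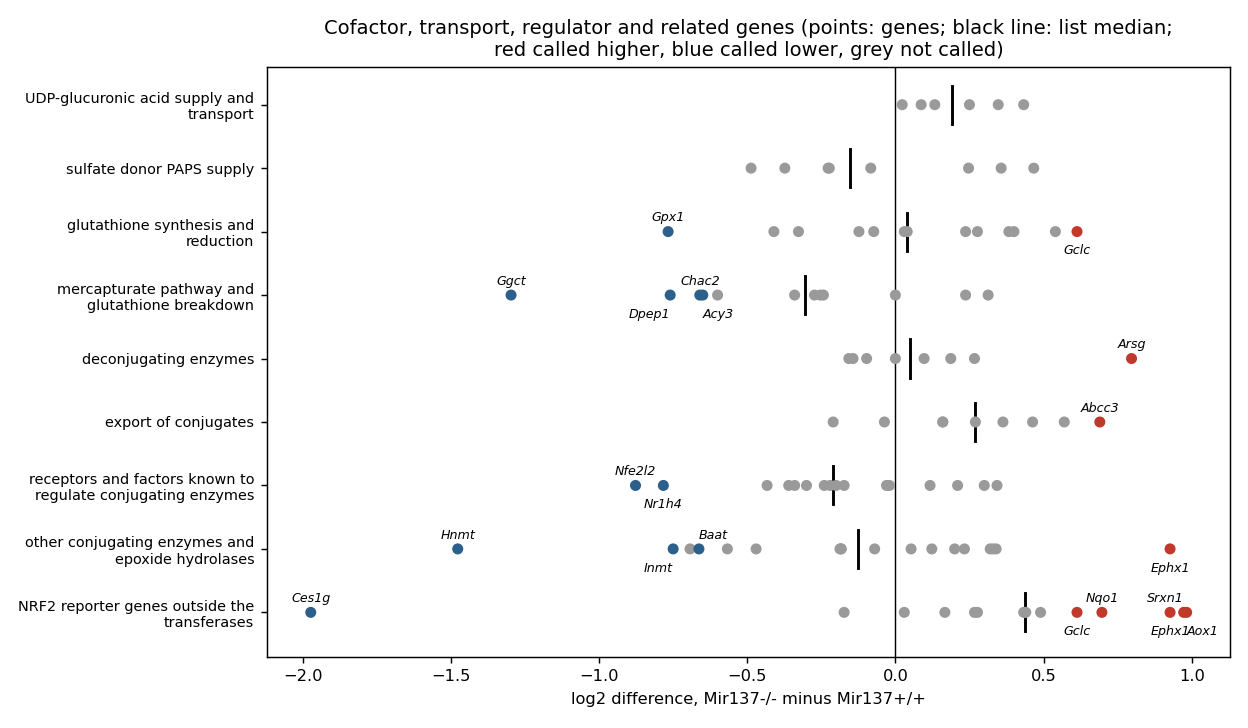
Log2 difference, Mir137-/- minus Mir137+/+, of each gene of the 9 pathway lists as a point, with the list median as a black line and called genes named. The mercapturate list holds 4 genes called lower and the list of NRF2 reporters 5 called higher; Gclc and Ephx1 stand in 2 lists each.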

How the data were processed

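Total liver RNA of 3 Mir137-/- and 3 Mir137+/+ mice was hybridised to 1 Affymetrix array each. The deposited log2 values were normalised by the authors with GCRMA per the labels, while the study's methods name RMA with scaling to the mean, so the background step is uncertain and low values may be compressed. They were used as deposited, and array numbers limit the precision. Of 45101 probe sets, 64 controls were left out, and 34945 named 1 gene. The probe set with the highest mean stood for each gene, which gave 18193 genes. Differences (Mir137-/- minus Mir137+/+) were tested with limma 3.58.1 in R 4.3.3, with Benjamini-Hochberg adjustment over all genes and calls at adjusted p below 0.05 and more than 1.5-fold. The replicates come from separate mice.

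Named were every called member, in each family the highest-reading member and that with the smallest p, members past the adjusted p under 1.5-fold, and called list genes. Members and lists were chosen with earlier results of these data known. Alternatives covered scaling, array weights, a filter on the 40% dimmest genes, probe set choice, the replicate block, each array left out, and the methods' t-test with its own counts; those for the pathway lists were chosen after seeing the data, and sex and the arrays with other transcripts were taken up from earlier results. Promoter windows, microRNA sequence and gene order came from RefSeq (GRCm38.p6). The code was tested on simulated data.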

Additional observations from a re-analysis of the deposited data

How the results depend on the processing

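The 5 and 6 members called higher and lower became 3 and 4 with sex from Xist as a term, 0 and 0 by limma without the 2 arrays with Xist (3 and 8 at an unadjusted p below 0.05 and more than 1.5-fold), and 4 and 4 without the arrays with pancreas transcripts. Lower calls were 10 without a fold threshold and 3 by the methods' t-test with adjustment, which gave 4 higher. Unadjusted, that t-test gave 5 and 6. Leaving out 1 array at a time gave 3 to 6 members higher and 3 to 6 lower, the lowest without Mir137+/+ replicate 2 (3 higher) and replicate 1 (3 lower). Family medians moved to -0.17 (UGT) and -0.092 (GST) without the arrays with Xist, to -0.043 (GST) without the pancreas arrays and to -0.49 (SULT) without the 40% dimmest genes.

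For the pathway lists, 7 higher and 11 lower became 3 and 4 with the sex term, 0 and 0 by limma without the arrays with Xist (8 and 10 unadjusted, past 1.5-fold), and 3 and 7 without the pancreas arrays. Leaving out 1 array gave 4 to 8 higher and 7 to 11 lower, with 4 higher without Mir137+/+ replicate 2 and 7 lower without Mir137+/+ replicate 1 or 3. Gstz1, not called, turned to -0.09 with the sex term, -0.09 without the arrays with Xist, -0.03 without the pancreas arrays and -0.065 without Mir137+/+ replicate 2 (-0.065 to 0.13 over single arrays left out). Nfe2l2 turned to 0.36 when its probe sets were averaged. The causes were not tested.

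Deviations of same-numbered arrays correlated at 0.102, 0.235 and 0.025, and those of differently numbered arrays at -0.161 to 0.0616. The highest, 0.235, was that of replicate 2, where both arrays held pancreas transcripts. With the replicate block 5 members were called higher and 6 lower, and 7 and 10 pathway genes. Of 644 values of named genes under alternatives, 523 kept their direction and their call or lack of one, 109 lost and 7 gained a call (by the adjusted p or by the 1.5-fold), and 5 reversed.

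Low readings, such as those of the 10 members below the array median on every array, limit what these arrays can show. A single Mir137+/+ array without Xist leaves sex and genotype only partly separable. With the sex term each difference is taken against that array alone.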
